A study of Mus musculus with 4 samples.

Results

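The major histocompatibility region examined here is the stretch of mouse chromosome 17 from 33700001 to 36200000 (mm8, counted from 1). It was chosen by these coordinates alone and divided into 625 tiles of 4 kb, of 657687 such tiles on chromosomes 1 to 19, X and Y. Its label names the H2 class I, II and III genes. No mm8 annotation was at hand, so the label was not checked against gene positions, and no tile below is assigned to a gene.

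Chromatin immunoprecipitation with sequencing was carried out in MDER 10T cells, a line of mouse fibroblasts in which MyoD1 can be induced by estrogen, as the series title has it. The 4 groups hold 1 library each: H3K4me3 (Abcam antibody AB8580), H3K27me3 (Abcam AB6002), H3K9me3 (Abcam AB8898) and whole-cell extract (WCE), which had no antibody step. All 4 came from cells grown with 10% FCS in a DMEM/F12 medium that had no phenol red, and the labels name no estrogen treatment, no promoter for MyoD1 and no mouse strain. With no replicates, each test on reads compares 2 libraries and not conditions.

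The major histocompatibility complex, called H2 in the mouse, holds the class I genes that display peptides from inside cells, the class II genes that display peptides taken up by antigen-presenting cells, and between them a gene-dense class III part with complement, heat shock and many housekeeping genes. Its class I genes and the complement C4 genes are known for having been copied repeatedly, so short reads can match more than 1 place. H3K4me3 marks promoters in use or poised for use, H3K27me3 is laid down by Polycomb complexes at silent genes, and H3K9me3 is typical of heterochromatin.

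Copies shaped the data of this region. A read that matched 1 place is listed once by the authors (section BWT1), a read that matched 2 places is listed at both (BWT2), and a read with more matches was dropped. Positions that the same BWT2 reads share give the distance between copies. For 2 distances found in these reads, 12918 and 71054 bases, RefSeq's GRCm38.p6 gene table holds exactly 1 pair of genes on the same strand of the chromosome whose starts lie that far apart. These are Hspa1b and Hspa1a, which encode heat-inducible HSP70 chaperones, and Gm11127 and Gm7030, which are named only as predicted genes. In all, 60 distinct distances of reads were compared with 6108 pairs of promoters of different genes on the same strand, and 2 pairs were equal to one. How many would be equal by coincidence was not tested. The equality of distances is a description across builds, and it places no tile on a gene. Their promoter sequences are shown because they let a reader see what such a copy looks like. Each run is the 250 bases before the start (RefSeq, GRCm38.p6, minus strand, 5′ to 3′), with capitals at the bases that differ within the pair.

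Hspa1b: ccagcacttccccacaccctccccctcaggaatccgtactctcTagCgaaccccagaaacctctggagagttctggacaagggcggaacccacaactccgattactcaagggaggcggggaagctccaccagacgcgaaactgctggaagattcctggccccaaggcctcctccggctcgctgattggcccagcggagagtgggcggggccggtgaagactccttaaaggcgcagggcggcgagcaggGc
Hspa1a: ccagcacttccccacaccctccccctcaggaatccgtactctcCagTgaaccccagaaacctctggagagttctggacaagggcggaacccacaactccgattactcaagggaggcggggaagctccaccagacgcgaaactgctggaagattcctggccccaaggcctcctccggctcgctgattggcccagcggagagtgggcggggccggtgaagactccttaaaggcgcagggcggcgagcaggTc
Gm11127: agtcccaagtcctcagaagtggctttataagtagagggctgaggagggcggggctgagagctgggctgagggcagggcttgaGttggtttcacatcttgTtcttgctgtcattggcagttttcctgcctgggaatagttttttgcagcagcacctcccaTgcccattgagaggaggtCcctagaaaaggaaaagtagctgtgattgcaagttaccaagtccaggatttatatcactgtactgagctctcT
Gm7030: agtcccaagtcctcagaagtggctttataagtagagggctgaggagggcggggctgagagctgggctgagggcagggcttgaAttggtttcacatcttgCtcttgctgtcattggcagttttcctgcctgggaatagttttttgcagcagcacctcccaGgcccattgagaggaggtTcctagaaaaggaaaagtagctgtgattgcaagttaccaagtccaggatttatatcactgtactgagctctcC

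The Hspa1b and Hspa1a runs are identical at 247 of 250 bases, and the Gm11127 and Gm7030 runs at 245 of 250. The palindromic letters GAANNTTC, a form found within binding sites of heat shock factor, were searched for. As a palindrome the motif reads the same on both strands. It occurs once in the Hspa1b run and once in the Hspa1a run, and 0 times in the other pair, while 6.69% of 32851 promoter sequences of the same length hold it. The Hspa1b and Hspa1a runs are nearly the same, so their matches are not separate, and the 6.69% is background to them and no test. A match is a description of letters and not of binding.

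In each library the reads with 1 position numbered 2101444 to 3086567 on the autosomes after repeated positions were removed, and BWT2 listings numbered 146086 to 176807. Within the region, repeated positions made up 5.53 to 6.51% of BWT1 reads. Each ratio below divides reads of a mark by WCE reads, both scaled by their autosomal BWT1 totals, and carries an exact (Clopper-Pearson) 95% interval. No molecular identifiers were used, so amplified reads need not be independent molecules and the intervals cover counting error alone. To be called, a tile needed a ratio of at least 2 and an adjusted p under 0.05 in a one-sided exact binomial test, with Benjamini-Hochberg adjustment over all tiles of the genome.

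H3K4me3 was the mark in which the region stood highest. Reads with 1 position in its 625 tiles numbered 11413 for H3K4me3, 6096 for H3K27me3 and 3474 for H3K9me3, beside 4919 for WCE. The H3K4me3 ratio was 2.24 (2.16 to 2.31), the H3K27me3 ratio 1.26 (1.21 to 1.31) and the H3K9me3 ratio 1 (0.958 to 1.05). Of 944 other autosomal segments of 2.5 Mb with at least 500 WCE reads, 1 had a higher H3K4me3 ratio, 90 a higher H3K27me3 ratio and 365 a higher H3K9me3 ratio. The medians of these segments were 0.847, 0.923 and 0.959. WCE itself was dense here, with 7.87 reads per tile against 4.84 over the autosomes, and 97 of the 944 segments held more WCE reads.

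The neighbouring stretches were unlike each other. The 2.5 Mb below the region had an H3K4me3 ratio of 1.77 (1.71 to 1.84) and an H3K27me3 ratio of 1.22 (1.17 to 1.26). The 2.5 Mb above it fell short of WCE for all 3 marks, with H3K4me3 at 0.857 (0.799 to 0.918), H3K27me3 at 0.794 (0.738 to 0.853) and H3K9me3 at 0.836 (0.773 to 0.904). That upper stretch held 1723 WCE reads, well under the 4919 of the region and the 4881 of the stretch below. mm8 is the C57BL/6J reference, and reads from another strain's copies would match it less often. The part of such mismatches in the read density was not tested.

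**Figure D1:**
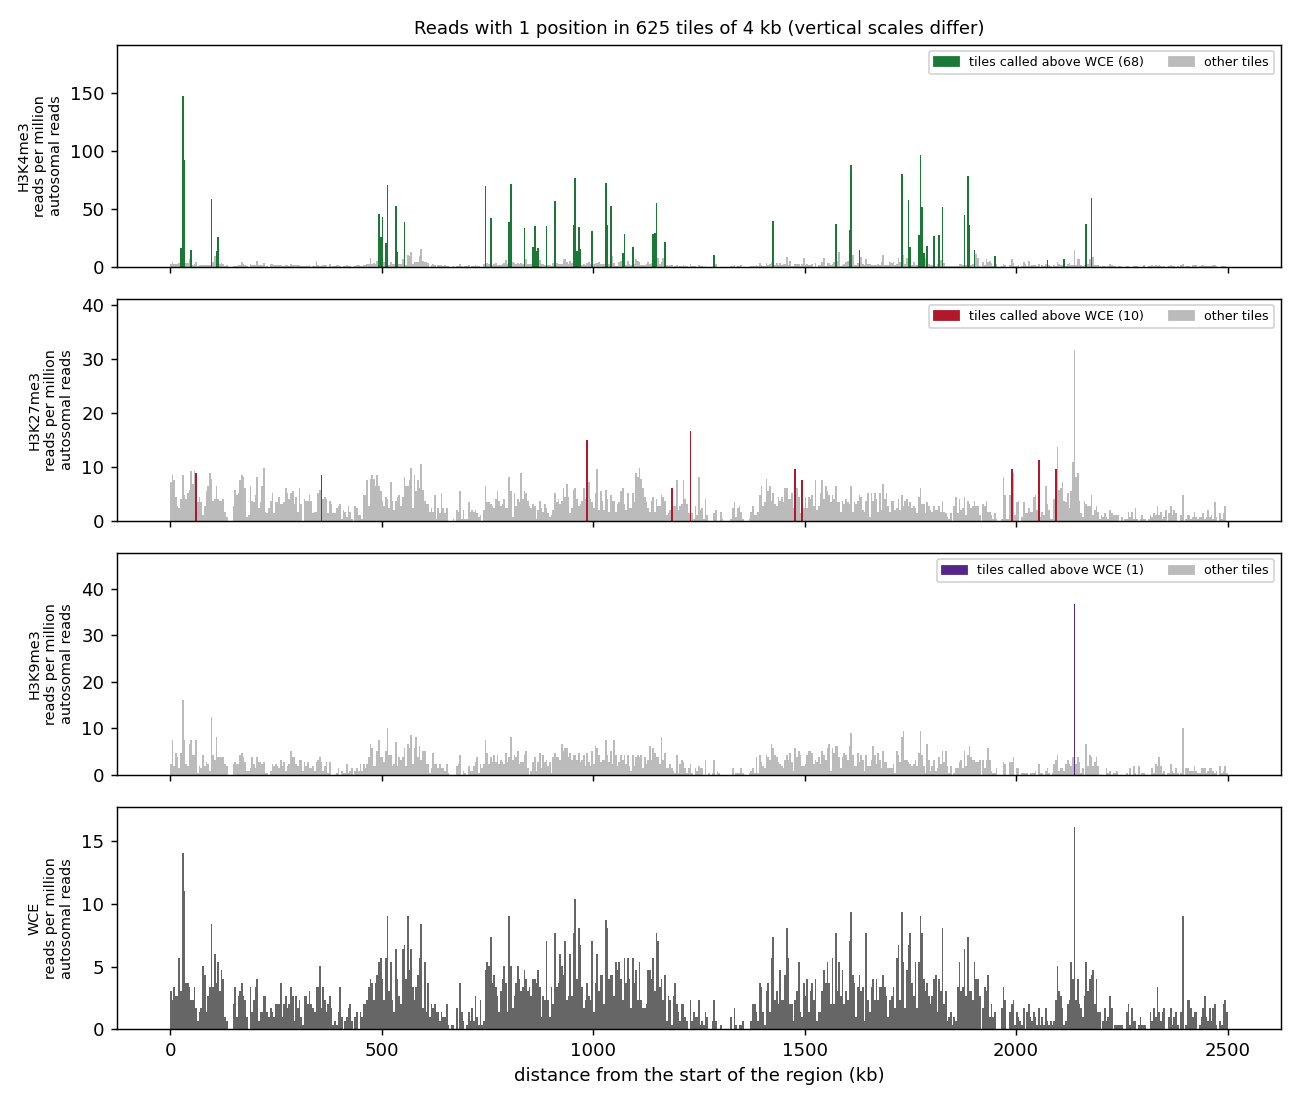
Reads with 1 position per 1000000 autosomal reads (vertical axes, scales differ) in 625 tiles of 4 kb against distance from the region's start (horizontal axis, kb), with tiles called above WCE in colour and other tiles in grey. The 68 called H3K4me3 tiles rise in groups, the 10 called H3K27me3 tiles stand singly, and the 1 called H3K9me3 tile coincides with the highest WCE tile.

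H3K4me3 was called in 68 of 589 region tiles tested (11.5%), where 2.33% of tested tiles were called genome-wide. These 68 tiles cover 272 kb and held 71.4% of the region's H3K4me3 reads against 24.2% of its WCE reads, a pooled ratio of 6.61 (6.22 to 7.04). This value describes tiles picked for that ratio and is no separate test. Among the 944 segments, 11 held more called H3K4me3 tiles, and the median segment held 9. In the same 68 tiles the other marks lay below WCE, H3K27me3 at 0.743 (0.68 to 0.811) and H3K9me3 at 0.859 (0.782 to 0.943). The 557 remaining tiles had an H3K4me3 ratio of 0.843 (0.804 to 0.884), and there H3K27me3 stood at 1.42 (1.36 to 1.48). WCE density moved with the calls, at 17.5 reads per called H3K4me3 tile and 6.7 per other tile, 2.61 times as many. Its part in the calls and in the lower ratios of the other marks was not tested.

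The 10 named H3K4me3 tiles, those of at least 20 H3K4me3 reads with the highest ratio after 1 read was added, were spread over the region. At 34444001 to 34448000, the tile held 214 H3K4me3, 19 H3K27me3, 16 H3K9me3 and 14 WCE reads, an H3K4me3 ratio of 14.7 (8.6 to 27.4, exact binomial test, adjusted p = 1.06e-42). Next came the tile at 34504001, with 221, 16, 17 and 15 reads in the same order and a ratio of 14.2 (8.43 to 25.8). In both, only H3K4me3 was far above the control library. The tile at 35876001 followed, with 184 H3K4me3 and 13 WCE reads (ratio 13.7, 7.79 to 26.1). The tile at 34740001 held 161 and 13 (11.9, 6.79 to 22.9), and that at 35588001 held 112 and 9 (12, 6.1 to 26.9). The most H3K4me3 reads of any tile, 456, lay at 33728001 to 33732000, where WCE had 42 (10.5, 7.63 to 14.7). The other 4 of the 10 named tiles, at 35472001, 35584001, 34200001 and 35308001, had 132 to 298 H3K4me3 reads and ratios of 9.37 to 10.7. All 10 were unduplicated and held at most 3 BWT2 listings of any library, so their signal rests on reads with 1 position.

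Called H3K4me3 tiles were joined into blocks where at most 5 uncalled tiles (20 kb) lay between neighbours and a chain held at least 3 called tiles. The region had 11 such blocks, and they took up 440 kb, 17.6% of its tiles. They held 64% of its H3K4me3 reads, 31.1% of its WCE reads and 55 of its 68 called tiles. Whether the blocks are gene-dense in mm8 was not examined for lack of an annotation. As background, RefSeq's GRCm38.p6 table lists 197 genes from H2-K1 to H2-T3, of which 125 are protein coding. Inside blocks the H3K27me3 ratio was 0.784 (0.726 to 0.847) and the H3K9me3 ratio 0.876 (0.807 to 0.95). Outside them H3K27me3 was 1.47 (1.41 to 1.54) and H3K9me3 1.06 (1 to 1.11), so the intervals of inside and outside did not overlap for either mark. The ratios of all 3 marks share the same WCE reads. H3K27me3 was called in 0 of the 110 block tiles and in 10 of the 515 others by the exact binomial test. At the share of 1.67% called over the region few calls would fall in the blocks, so nothing is read from the 0.

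Block 10 was the longest, at 35428001 to 35528000 (100 kb). It had 11 called tiles and 1581 H3K4me3 reads against 340 WCE reads, a ratio of 4.49 (3.99 to 5.06), and 13.9% of the region's H3K4me3 reads. Its H3K27me3 ratio was 0.642 (0.539 to 0.764). Block 1, at 33724001 to 33752000, had the highest H3K4me3 ratio of the 11, 6.86 (5.67 to 8.35), from 874 and 123 reads. Unlike block 10, block 1 had H3K27me3 near WCE, at 1.01 (0.777 to 1.3). Block 6, at 34728001 to 34744000, followed at 6.46 (5.06 to 8.34), and block 11, at 35576001 to 35604000, at 5.95 (4.75 to 7.52).

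The H3K4me3 ratios of the remaining blocks ran from 2.3 to 4.76. Block 3, at 34192001 to 34256000, held 8 called tiles and 1031 H3K4me3 reads against 216 of WCE (4.6, 3.97 to 5.36). Block 4, at 34536001 to 34612000, held 7 called tiles (3.56, 3.04 to 4.18) and is the 1 block with duplicated tiles, 3 in number. Block 5, at 34652001 to 34672000, is a single unbroken run of 5 called tiles, the longest run of the region at 20 kb, with 543 and 110 reads (4.76, 3.87 to 5.9). Block 5 also had the lowest H3K27me3 and H3K9me3 ratios of any block, 0.591 (0.427 to 0.811) and 0.528 (0.36 to 0.762). Block 8, at 34840001 to 34872000, had a ratio of 4.12 (3.35 to 5.1), block 9, at 35304001 to 35332000, 4.49 (3.61 to 5.64), and block 2, at 33796001 to 33816000, 4.11 (3.21 to 5.31). Block 7, at 34768001 to 34796000, was lowest at 2.3 (1.78 to 2.99). The intervals of blocks 2, 3, 5, 8, 9 and 10 overlap, so their order is not resolved at this depth. Unbroken runs were short: of 43 runs of called H3K4me3 tiles, 28 were a single tile.

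Outside blocks, 13 called H3K4me3 tiles stood apart, among them the 3 that head the named tiles above. The smallest counts of the 13 belong to the tiles at 35772001, with 17 H3K4me3 and 2 WCE reads (8.2, 1.95 to 73.2), and 35812001, with 19 and 1 (18.3, 2.91 to 762). Those ratios are hardly bounded from above. Just inside the rule, the tile at 35448001 had 52 and 23 reads (ratio 2.18, adjusted p = 0.04 in the exact binomial test). Just outside, the tile at 35604001 had 33 and 12 (2.65, exact binomial test, adjusted p = 0.0759).

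H3K27me3 stood weakly above WCE over much of the region but not all of it. Its interval lay above 1 in 15 of 25 steps of 100 kb and below 1 in 2. It was called in 10 of 599 tested tiles (1.67%), where 0.624% of tested tiles were called genome-wide, and every called tile stood alone. The 10 tiles held 4.94% of the region's H3K27me3 reads. The tiles called for no mark had an H3K27me3 ratio of 1.35 (1.3 to 1.41), so the region's excess was not limited to called tiles. Of the 944 segments, 117 held more called H3K27me3 tiles and 12 held as many. No tile was called for both H3K4me3 and H3K27me3 by the exact binomial test, where 0.0514% of tiles were called for both genome-wide. The 10 tiles lay 8 to 132 kb from the nearest called H3K4me3 tile, with a median of 26 kb.

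Among single tiles, 34928001 to 34932000 gave the firmest H3K27me3 excess, with 49 H3K27me3, 8 H3K4me3, 5 H3K9me3 and 7 WCE reads (ratio 7.11, 3.2 to 18.6, exact binomial test, adjusted p = 3.73e-06). At 35752001 the counts were 33 H3K27me3 and 5 WCE reads (6.7, 2.6 to 22), and at 34684001 they were 44 and 11 (4.06, 2.06 to 8.72). The tile at 34884001 had 18 reads against 1 (18.3, 2.88 to 761), too few WCE reads to place it among the others. At 35192001 there were 22 against 3 (7.44, 2.24 to 38.8). The other 5, at 33760001, 34056001, 35688001, 35176001 and 35792001, held 25 to 28 H3K27me3 reads against 5 to 7 of WCE. The last 2 of these were just inside the rule (adjusted p = 0.0383 for both, exact binomial test). Just outside lay the tile at 33920001, with 29 and 8 reads (3.68, exact binomial test, adjusted p = 0.0507), and the tile at 35836001, with 93 and 48 (1.97), which missed the ratio of 2.

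Over steps of 100 kb the marks took different courses. H3K4me3 ratios ran from 0.419 to 3.87, and 11 of 25 steps reached 2, as did 6.71% of autosomal steps with at least 50 WCE reads. H3K27me3 ran from 0.685 to 3.06, with 3 of 25 steps at 2 or above (2.84% of autosomal steps), and its interval lay above 1 in 15 steps and below 1 in 2 (18.8% and 39.7% of autosomal steps). H3K9me3 ran from 0.618 to 1.32, and 0 of 25 steps reached 2 (1.23% of autosomal steps).

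The highest H3K27me3 step was 35700001 to 35800000, with 250 H3K27me3 and 83 WCE reads (3.06, 2.38 to 3.97). H3K4me3 there was 1.3 (0.971 to 1.75). Next was 34900001 to 35000000, with 198 and 71 reads (2.83, 2.15 to 3.77), then 33900001 to 34000000, with 308 and 152 (2.06, 1.69 to 2.51). These steps hold 14, 10 and 0 duplicated tiles in that order. The lowest H3K27me3 step, 35400001 to 35500000 (0.685, 0.575 to 0.814), overlaps block 10 and has an H3K4me3 ratio of 3.79 (3.36 to 4.29). The highest H3K4me3 step was the first, 33700001 to 33800000, with 1163 and 290 reads (3.87, 3.4 to 4.42). The lowest was the last, 36100001 to 36200000, with 40 and 92 (0.419, 0.282 to 0.614).

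**Figure D2:**
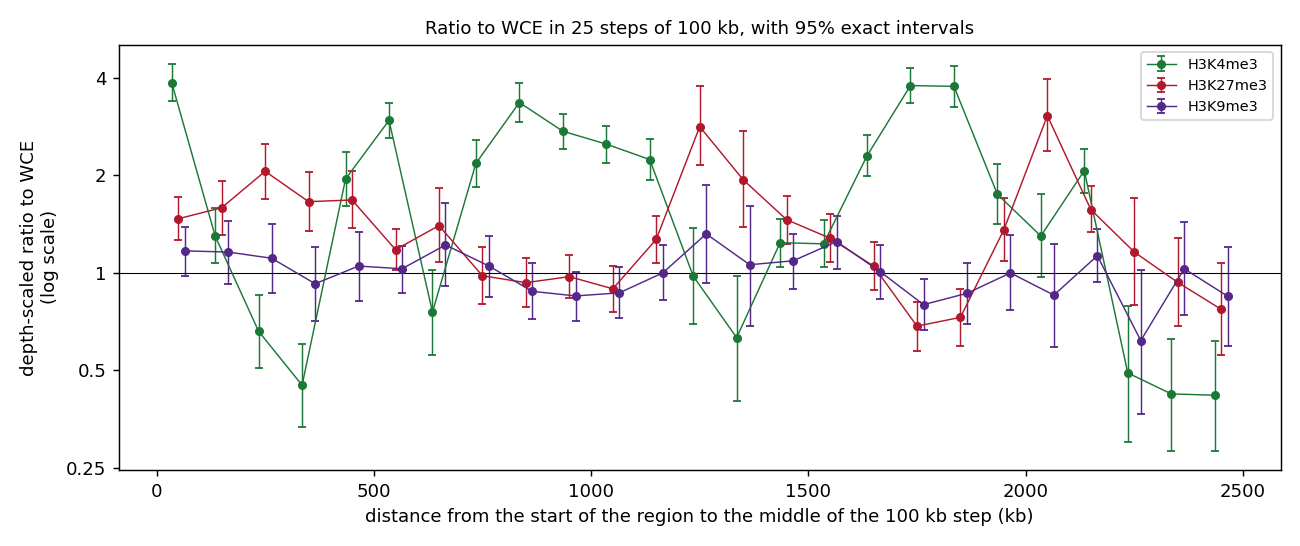
Depth-scaled ratio of each mark to WCE (vertical axis, log scale) in 25 steps of 100 kb against distance from the region's start (horizontal axis, kb), with points for ratios and bars for 95% exact intervals. H3K27me3 peaks at 2.83 and 3.06 lie in steps where H3K4me3 is 0.978 and 1.3, and H3K9me3 stays between 0.618 and 1.32.

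The stretch from 33816001 to 34192000, between blocks 2 and 3, was the longest one with no called H3K4me3 tile. Over its 376 kb, H3K27me3 had 1015 reads and H3K4me3 364, against 556 of WCE. The H3K27me3 ratio was 1.85 (1.67 to 2.06) and the H3K4me3 ratio 0.632 (0.552 to 0.722), yet 1 tile of 94 was called for H3K27me3. The pooled ratio lies under the 2 that the calling rule asks of a tile. Single tiles above 2 missed the adjusted p. At 33920001 it was 0.0507 (29 and 8 reads, 3.68), and at 33856001 0.31 (14 and 3 reads, 4.74), both by the exact binomial test. Over the whole region, 111 tiles with at least 3 WCE reads had an H3K27me3 ratio of at least 2, where 10 tiles were called. Between blocks 8 and 9 lie 432 kb, from 34872001 to 35304000, where H3K27me3 was at 1.59 (1.44 to 1.76), with 4 called H3K27me3 tiles and 29 duplicated tiles.

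H3K9me3 was at the WCE level over the region in BWT1 reads. Its BWT2 listings stood at 1.39 (1.29 to 1.49), against 1.18 over the autosomes. From BWT1 reads H3K9me3 was called in 1 of 595 tested tiles (0.168%), where 0.0195% were called genome-wide. That tile, 35836001 to 35840000, held 77 H3K9me3, 93 H3K27me3, 44 H3K4me3 and 48 WCE reads, an H3K9me3 ratio of 2.27 (1.56 to 3.33, exact binomial test, adjusted p = 0.0318). Within it, the 250 bp from 35839251 to 35839500 held 58 H3K9me3, 58 H3K27me3, 28 H3K4me3 and 39 WCE reads. All 4 libraries were thus concentrated in the same short stretch, and the rest of the tile had 19 H3K9me3 and 9 WCE reads. With repeated positions kept, the H3K9me3 call was lost. In the 100 kb steps, 1 H3K9me3 interval lay above 1, at 35200001 to 35300000 (1.25, 1.03 to 1.5), and 1 lay below, at 35400001 to 35500000 (0.798, 0.664 to 0.958), where 10.8% and 14.9% of autosomal steps did.

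Duplication set the region apart from most of the genome. It held 29.3 BWT2 listings per 100 BWT1 reads, where the median of the 944 segments was 4.73 and 28 segments were higher. By library this was 17.6 in H3K4me3, 43.8 in H3K27me3, 41.5 in H3K9me3 and 29.9 in WCE. A tile was counted as duplicated where the 4 libraries together had at least 20 BWT2 listings and more BWT2 than BWT1 reads. This held for 91 of 625 tiles (14.6%), against 0.504% genome-wide, and 1 of the 944 segments had more of them. The 91 tiles held 75.4% of the region's BWT2 listings and 4.86% of its BWT1 reads. In 9 tiles there were BWT2 listings and no BWT1 read, and 13 tiles had no read of either kind.

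**Figure D3:**
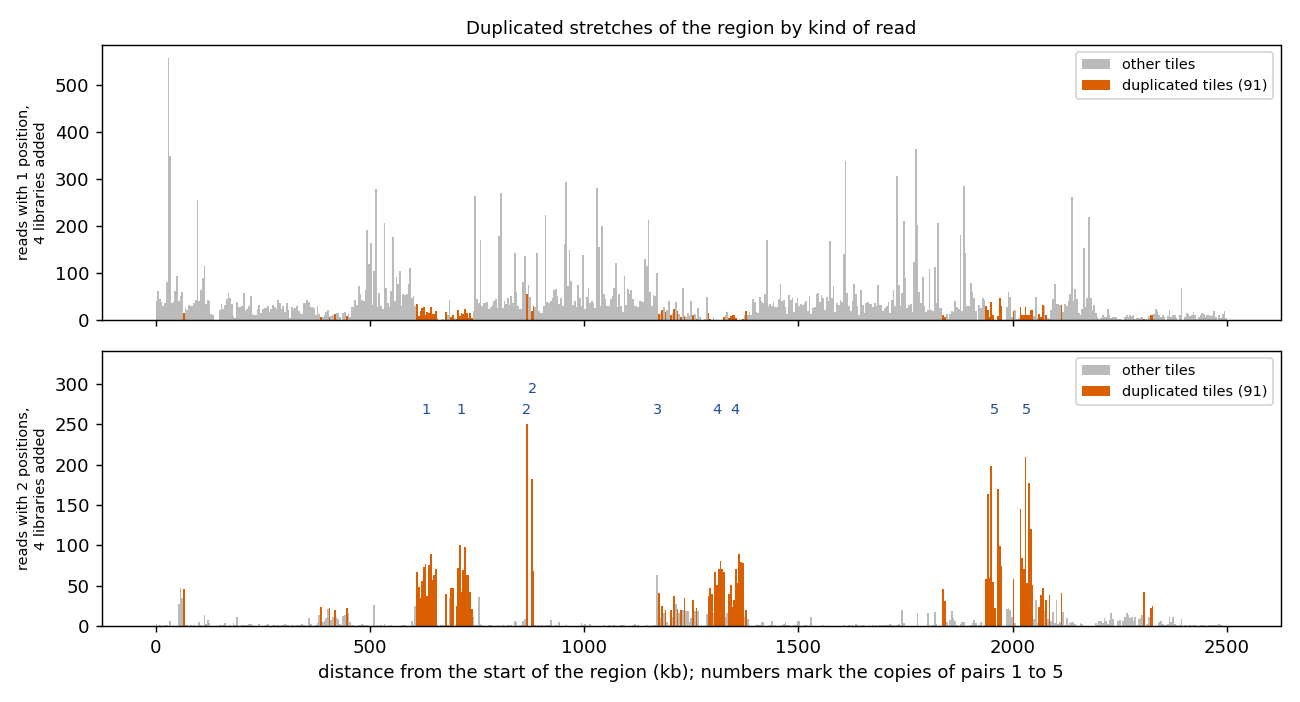
Reads of the 4 libraries added together per 4 kb tile, with 1 position (upper panel) and 2 positions (lower panel), against distance from the region's start (kb); the 91 duplicated tiles are in colour and numbers mark copies of pairs 1 to 5. The duplicated tiles hold 4.86% of the reads in the upper panel and 75.4% of the listings in the lower one, where the highest tile has 250.

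In the 91 duplicated tiles the BWT2 listings numbered 1558 for H3K4me3, 2032 for H3K27me3, 1109 for H3K9me3 and 1024 for WCE. H3K27me3 stood at 2.01 (1.87 to 2.17), H3K9me3 at 1.53 (1.41 to 1.67) and H3K4me3 at 1.47 (1.36 to 1.59). On the same scale, BWT2 listings of all autosomes stood at 1.02, 1.18 and 0.847. H3K27me3 exceeded scaled WCE in 82 of the 91 tiles (90.1%), where it did so in 62.4% of the 3081 duplicated tiles of the genome. H3K9me3 did so in 65 (71.4%, against 61.4%) and H3K4me3 in 39 (42.9%, against 35.8%). The few BWT1 reads of these tiles gave H3K27me3 a ratio of 1.66 (1.42 to 1.93), H3K9me3 one of 1.07 (0.889 to 1.28) and H3K4me3 one of 1.11 (0.946 to 1.31). So the H3K27me3 excess appeared in both kinds of read, while the intervals of BWT1 H3K9me3 and H3K4me3 include 1. BWT2 listings count a read at both of its places, so the intervals are too narrow where both lie in the set, and a mark cannot be assigned to one copy.

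Tested tile by tile, BWT2 listings gave 11 called H3K4me3 tiles (3.33% of those tested in the region, 0.423% genome-wide), 6 called H3K27me3 tiles (1.82%, 0.0228% genome-wide) and 2 called H3K9me3 tiles (0.617%, 0.0103% genome-wide). Of these, 8, 6 and 2 were not called from BWT1 reads. A read listed at both of its places can count in both tiles, so the calls of a mark are not all separate sites. For H3K27me3 the firmest was 35740001 to 35744000, with 75 H3K27me3, 13 H3K4me3, 20 H3K9me3 and 13 WCE listings (5.86, 3.23 to 11.5, exact binomial test, adjusted p = 2.37e-07). For H3K4me3 the tile at 35716001 had 86 against 9 (9.22, 4.64 to 20.8). The H3K4me3 tile at 34868001 had 50 against 3 (16.1, 5.19 to 80.6).

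By matching reads that share an exact distance, 5 pairs of copies with at least 40 matched reads were found, and 46 smaller chains of 8 to 39 reads are not described. Partners were searched for on chromosome 17 alone, so copies on other chromosomes were not looked for. The 5 pairs hold 1938 matched reads, each listed at both places, beside 7593 BWT2 listings that start in the region. The copies were unlike in size and in marks. Matched reads are listed in both copies of a pair, so the copies are not repeats of each other. Counts per copy can also hold BWT2 reads that were not matched to the partner. In pair 3, 31 H3K4me3 reads were matched, while the first copy held 63 and the second 48.

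Pair 2 was the sharpest. Its copies, at 34565182 to 34567527 and 34578100 to 34580445 (2.35 kb), share 250 reads at the single distance of 12918 bases, the distance of the Hspa1b and Hspa1a starts printed above. It had 96 H3K9me3, 94 H3K4me3, 42 H3K27me3 and 18 WCE reads. H3K9me3 stood at 7.56 (4.54 to 13.3), H3K4me3 at 5.04 (3.02 to 8.87) and H3K27me3 at 2.37 (1.33 to 4.37), so all 3 marks exceeded WCE over the copy as a whole. Within copy 1 the densest 250 bp were not the same. H3K9me3 had most reads at 34566501, with 27 beside 8 of H3K4me3 and 2 of WCE. H3K4me3 had most at 34567001, with 35 beside 16 of H3K9me3 and 4 of WCE. The tile of the first copy was called for H3K9me3 by the exact binomial test on BWT2 listings (adjusted p = 7.71e-16), and so was that at 34576001 (82 H3K9me3 and 14 WCE listings, 8.3, 4.68 to 15.8, adjusted p = 4.46e-14). These are the 2 BWT2 H3K9me3 calls of the region, and they show largely the same reads.

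Reads with 1 position were few just outside the copies of pair 2, except for H3K4me3 above copy 1. In the 2 kb below copy 1, 2 kb above it, 2 kb below copy 2 and 2 kb above it, H3K9me3 had 4, 3, 3 and 7 BWT1 reads and WCE had 4, 11, 3 and 2. Above copy 2 the H3K9me3 ratio was 4.96 (0.944 to 48.9), and in the other 3 flanks it was 0.386 to 1.42. All 4 intervals include 1, and at these counts an H3K9me3 excess in the flanks could be neither shown nor bounded closely. H3K4me3 went on past copy 1, with 73 BWT1 reads against 11 of WCE in the 2 kb above it, and had 5 against 2 above copy 2. Inside the copies almost no BWT1 read was listed, with 4 in copy 1 over the 4 libraries and 0 in copy 2. Whether the marks lie on one copy or both, or on the same molecules, cannot be told from these reads.

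**Figure D4:**
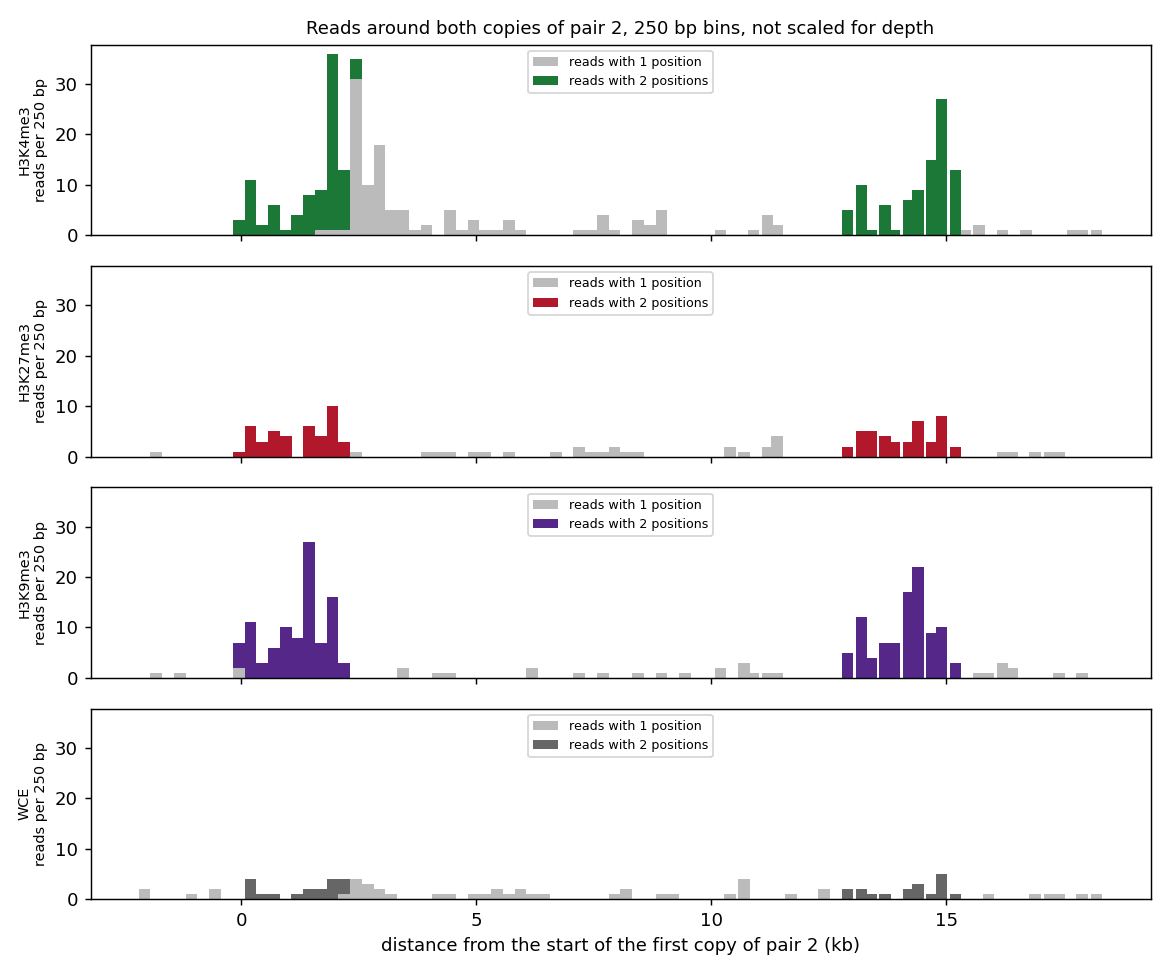
Reads per 250 bp in each library (vertical axes, not scaled for depth) against distance from the start of the first copy of pair 2 (horizontal axis, kb), with reads of 1 position in grey and of 2 positions in colour. Both copies fill with 2-position reads in all 3 mark libraries, H3K9me3 reaching 27 in 1 bin and H3K4me3 35 in another. Grey H3K4me3 reads continue above copy 1.

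Pair 5 carried both H3K4me3 and H3K27me3. Its copies, at 35638277 to 35675606 and 35717316 to 35746678, share 689 matched reads at distances from 71051 to 79039 bases. The leading distance, 71054, is that of the Gm11127 and Gm7030 starts printed above. It was shared by 81 of the matched reads over all tiles, 66 of them in 1 tile. In the first copy the BWT2 reads numbered 371 for H3K4me3, 241 for H3K27me3, 144 for H3K9me3 and 144 for WCE. H3K4me3 was at 2.49 (2.05 to 3.03), H3K27me3 at 1.7 (1.38 to 2.1) and H3K9me3 at 1.42 (1.12 to 1.8). Within it some tiles differed in their leading mark: 35648001 had 125 H3K4me3, 20 H3K27me3 and 28 WCE listings, and 35668001 had 17, 53 and 15. At 35640001 both marks were above WCE, with 86, 38 and 19. In the second copy 35728001 had 134, 17 and 30, and 35740001 had 13, 75 and 13, while 35716001 had both marks above WCE, with 86, 34 and 9. The marks were thus not on separate tiles throughout. BWT1 reads gave H3K4me3 ratios of 1.83 (1.21 to 2.8) in copy 1 and 1.77 (1.05 to 3.04) in copy 2, and H3K27me3 ratios of 1.43 (0.918 to 2.24) and 2.24 (1.36 to 3.8). For H3K9me3 they lay the other way from the BWT2 reads, at 0.766 (0.421 to 1.35) in copy 1 and 0.295 (0.088 to 0.789) in copy 2.

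Pairs 1 and 4 showed an excess of H3K27me3 and none of H3K4me3. Pair 1, at 34308132 to 34354405 and 34386262 to 34439966, shares 535 matched reads at distances from 78130 to 85667 bases. Its first copy held 299 H3K27me3, 136 H3K4me3, 153 H3K9me3 and 150 WCE reads, with ratios of 2.02 (1.66 to 2.48), 0.875 (0.688 to 1.11) and 1.45 (1.15 to 1.82). In GRCm38.p6 the starts of Cyp21a2-ps and Cyp21a1 lie 81917 bases apart and those of C4b and C4a 80953, values inside that range but equal to none of the distances found. Cyp21a1 encodes the steroid 21-hydroxylase and C4b complement component C4. The distance of the H2-T23 and H2-T-ps starts, 79053 bases, lies inside the range too. The range thus singles out none of these gene pairs. Pair 4, at 34991625 to 35026407 and 35032665 to 35071613, shares 423 matched reads, led by the distance of 45200 bases. Its first copy held 257 H3K27me3 and 52 H3K4me3 reads against 115 of WCE, ratios of 2.27 (1.81 to 2.85) and 0.436 (0.308 to 0.61). H3K9me3 in pair 4 was 1.05 (0.782 to 1.4). The starts of the class I genes H2-Q6 and H2-Q10 lie 45239 bases apart in GRCm38.p6, near that distance without being equal to it. Other gene pairs whose starts lie inside the range of pair 1 or near the distance of pair 4 are not given here.

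Pair 3 is inverted and has its partner outside the region, at 33609719 to 33610918. Its copy in the region, at 34870935 to 34872138, lies mostly inside the last called tile of block 8, which ends at 34872000. It held 63 H3K4me3, 10 H3K27me3, 4 H3K9me3 and 3 WCE reads with 2 positions, an H3K4me3 ratio of 20.3 (6.62 to 101). The BWT1 reads at the same place gave 54 H3K4me3 and 5 WCE reads (10.4, 4.2 to 33.4), and those of the partner 58 and 4 (14, 5.18 to 53.1). Both places thus had H3K4me3 in reads that match nowhere else, which was not so for the copies of pair 2.

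**Figure D5:**
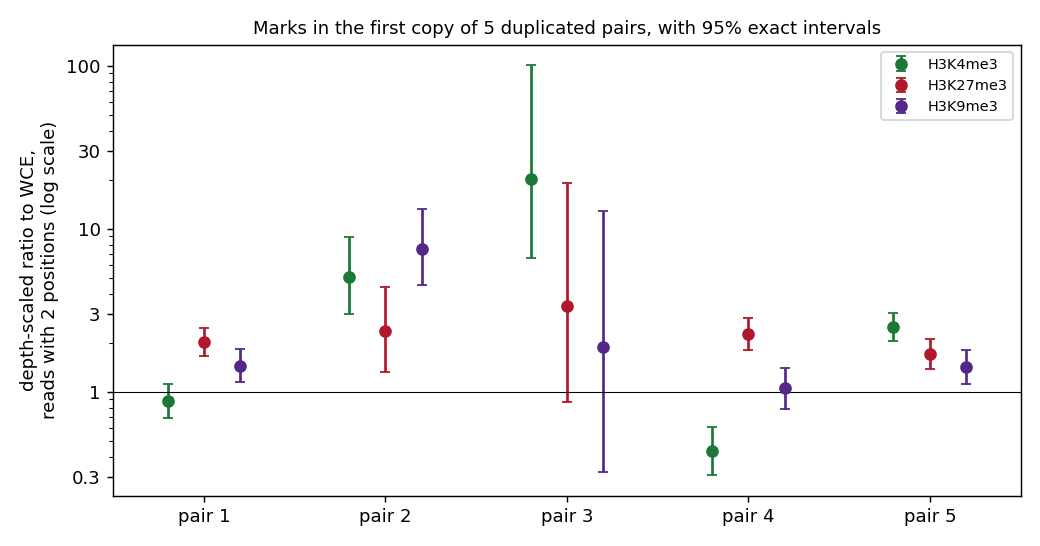
Depth-scaled ratio to WCE of reads with 2 positions (vertical axis, log scale) in the first copy of 5 duplicated pairs (horizontal axis), with points for ratios and bars for 95% exact intervals. H3K4me3 ranges from 0.436 in pair 4 to 20.3 in pair 3, H3K27me3 from 1.7 to 3.38, and H3K9me3 is highest in pair 2 at 7.56.

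The 10 duplicated tiles with the most BWT2 listings fell in pairs 1, 2 and 5. They ranged from 250 listings with 55 BWT1 reads at 34564001 to 100 listings with 9 at 34408001. In 6 of them H3K4me3 had the most listings of the 4 libraries, not scaled for depth. Tiles from both copies of pairs 2 and 5 are among the 10 and can show the same reads, so they are not separate sites. H3K27me3 had the most at 35740001 and 34408001, and H3K9me3 at 34576001 and, with 96 against 94 of H3K4me3, at 34564001.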

How the data were processed

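ChIP-seq reads of 4 libraries were used: H3K4me3, H3K27me3, H3K9me3 and WCE, 1 library per group. The deposited files hold signed read positions (a minus sign for the reverse strand), no counts per feature and no score, and the authors aligned reads to mm8 with Bowtie, options e 70, k 2, m 2, n 2 and l 36, per the file headers. The aligner version is not given in the sources used here.

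Repeated positions were reduced to 1 per strand, reads moved 60 bp along their strand and counted in 4 kb tiles. BWT1 and BWT2 listings were counted apart. Each mark was compared with WCE in every tile holding a read of either library, with a one-sided exact binomial test and Benjamini-Hochberg adjustment over all tiles. BWT2 tests used the BWT1 scale. A WCE count of 0 was set to a floor of 3 reads. The software was scipy 1.17.1 and numpy 2.4.6 under Python 3.11.15, with figures by matplotlib 3.10.9. The calling step was tested on simulated data.

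Named are, per mark, 10 called tiles of at least 20 mark reads, ranked by log2 ratio after adding 1 read, every called tile of a mark with at most 10, every block, the 10 most listed duplicated tiles and the extreme 100 kb steps. Members and rules were chosen with earlier results of these data known, and the matching of copies, flank counts and promoter distances was chosen after seeing the data. Tile sequences and gene-level counts were not analysed here, as no mm8 genome or annotation was used.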

Additional observations from a re-analysis of the deposited data

How the results depend on the processing

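The H3K4me3 and H3K27me3 ratios of the whole region stayed above 1 under the alternatives run. Ratios whose intervals include 1 crossed it: the H3K9me3 ratio of the region (0.983 with all reads kept) and, with BWT2 listings scaled by their own totals, H3K4me3 in pair 1 (0.875 to 1.03) and H3K9me3 in pair 4 (1.05 to 0.886). H3K4me3 calls numbered 63 to 89 over 9 alternatives, and blocks 8 to 10. Scaling by the median of 100 kb bins raised the region's ratios to 3.71 for H3K4me3, 1.5 for H3K27me3 and 1.06 for H3K9me3, since the median autosomal bin had ratios of 0.603, 0.836 and 0.945. Adding each BWT2 listing at a weight of 0.5 gave 2.12, 1.33 and 1.05. H3K27me3 calls, 10 as reported, were 16 with all reads kept, 2 with 2 kb tiles, 31 under median scaling, 4 at an adjusted p under 0.01, 4 with the larger of tile and local WCE, and 20 with BWT2 at that weight. The 1 H3K9me3 call became 0 with all reads kept, 0 with 2 kb tiles, 0 at an adjusted p under 0.01 and 0 at a ratio of at least 3, all by the exact binomial test, and 3 with BWT2 at that weight. Thresholds of p and ratio move counts by construction; for the other settings the cause was not tested. Duplicated tiles numbered 79 to 93. BWT2 listings scaled by their own totals gave 12 H3K4me3, 5 H3K27me3 and 2 H3K9me3 calls. A setting that placed reverse reads at their higher end was added after seeing the data and gave 69, 10 and 1 calls. No paired analysis was possible because each group holds 1 library. The median region tile had 7 WCE reads, and broad levels under a ratio of 2 are not called by the rule at any depth.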
